A study of Mus musculus with 10 samples.

Results

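Genes linked to pluripotency were followed through the chemical conversion of mouse fibroblasts into XEN-like cells. The 10 genes were chosen by name among the 23197 genes of the count table, and each had a row there. *Pou5f1* (Oct4), *Sox2*, *Esrrb* and *Zfp42* (Rex1) are genes of embryonic stem cells, *Klf2*, *Klf4* and *Klf5* encode Krüppel-like factors, *Lin28a* and *Lin28b* encode RNA-binding proteins, and *Tdh* encodes a mitochondrial enzyme. Per UMI of the cell, *Klf4*, *Klf5*, *Lin28a* and *Tdh* were higher at day 20 than in the starting fibroblasts (per spike-in UMI, *Tdh* alone was past the limit used and *Klf4* was lower), *Klf2* was not detected at day 20, and *Pou5f1* and *Esrrb* stayed silent at every time point.

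Mouse embryonic fibroblasts (MEFs) of the ICR stock were prepared from embryos without head, limbs and viscera, and they are the day 0 cells. They were treated with C6FAE, a cocktail of CHIR99021, the compound abbreviated 6, Forskolin, AM580 and EPZ004777. All samples are labelled C6FAE, whereas the methods of the study list a medium that also holds valproic acid. Cells were picked singly on days 0, 1, 2, 3, 4, 5, 6, 8, 12 and 20 of the treatment, which name the groups d0 to d20 (the d6 cells are named d6p, and the p is not explained), and the groups d8c and d12c came from colonies of days 8 and 12. The 10 sequenced batches of the series cannot be read from the names of the cells, which hold the group and a running number, so all cells count as 1 sample and groups were compared without a test. Of 808 deposited cells, the 670 with at least 4000 detected genes were kept.

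The counts are UMIs (unique molecular identifiers, meant to count each RNA molecule once), scaled to 1000000 UMIs of the cell without spike-in RNAs (CPM). Kept cells had between 17633 and 6004864 UMIs, with medians by group from 195480 at d20 to 1055206 at d2. A gene at a low level was therefore easier to miss at d20. The filter took out 34 of 72 d20 cells and 45 of 96 d12c cells, and 12 of 84 d0 cells. A gene was called silent in a group when its mean was under 1 CPM and under 10% of the cells held a UMI, and detected otherwise. Shares of cells carry exact Clopper-Pearson intervals and ratios of summed UMIs exact conditional intervals, both at 95% and for counting error only. The intervals of ratios treat each UMI as a separate count. Where a gene had no UMI, the level that a count of 3 would give is also printed as a floor, and it is tighter than the far end of the exact interval beside it.

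In embryonic stem cells, Oct4 and Sox2 bind DNA together and hold up a network to which Esrrb and the Krüppel-like factors belong, and *Zfp42* is a marker of that state. XEN cells stand for the extraembryonic endoderm, the lineage of the yolk sac, which is specified by Gata and Sox17 factors and lacks the Oct4 network. Lin28 proteins block the maturation of let-7 microRNAs. Threonine dehydrogenase (Tdh) starts the breakdown of threonine into products that feed acetyl-CoA and the one-carbon pool, on which mouse embryonic stem cells depend. *Klf4* and *Klf5* are also known from epithelia.

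The labelled cell types were first compared with their defining markers. The summed level of 12 fibroblast markers had a median of 3583 CPM over cells at d0 and 48.5 CPM at d20, where 9 of the 12 reached a mean of 1 CPM. The sum of 15 XEN markers went the other way, from 343 CPM at d0 to 4922 CPM at d20. A mean of 1 CPM was reached by 7 of the 15 at d0 and by 14 at d20. *Cited1* (2027 CPM) and *Sox17* (982 CPM) had the highest d20 means. *Dab2* did not follow, with a difference of -1.48 in mean log2(CPM + 1), and *Amn* stayed under 1 CPM. A marker score, the mean log2(CPM + 1) of the XEN markers minus that of the fibroblast markers, holds none of the 10 genes and was over 0 in no cell from d0 to d8c, in 2 of 67 cells at d12, in 31 of 51 at d12c and in 37 of 38 at d20. Cells with a score over 0 are called XEN-side here and the others fibroblast-side, as ranges of a score and not as cell types, and 6 cells of d12 and d12c lay within 1 of the limit.

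*Tdh* had the sharpest course of the 10 genes. It lies on chromosome 14 (64111184 to 64127929, minus strand, mm9), where the annotation lists *Gm17232* as an overlapping transcript on the opposite strand, and whether the counting used strand is not given in the sources used here. Its mean was 0.0192 CPM at d0 and 0.105 CPM at d4, with 1, 1 and 3 UMIs in all at d0, d3 and d4, and none at d1, d2, d5, d6, d8 or d8c. Means then stood at 1.17 CPM at d12, 106 CPM at d12c and 146 CPM at d20. The d12 value came almost wholly from 1 cell at 76.7 CPM, without which it was 0.0268 CPM.

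A *Tdh* UMI was found in 34 of 38 d20 cells (89.5%, interval 75.2 to 97.1) and in 30 of 51 d12c cells (58.8%, 44.2 to 72.4), against 3 of 67 at d12 and 1 of 72 at d0. With each cell thinned to 50000 UMIs (647 of the 670 were deep enough), the shares were 77.8% at d20, 48.9% at d12c and 3.03% at d12, in the same order. Over all UMIs of the groups, *Tdh* was at 123 CPM at d20 and, from 1 UMI, at 0.0249 CPM at d0, a ratio of 4941 with a counting interval from 885 to 195331. On the log2(CPM + 1) scale, on which group means are compared below, *Tdh* was 5.89 higher at d20 than at d0, and 99.7% of the tested genes had a smaller signed difference.

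*Lin28a* (chromosome 4, 133559245 to 133574756, minus strand) and *Lin28b* (chromosome 10, 45096426 to 45206201, minus strand) appeared in the same groups as *Tdh*. No UMI of *Lin28a* was found in any of the 514 kept cells from d0 to d8c. At d0 this was 0 of 72 cells, which allows a share of up to 4.17% from a count of 3 (exact interval up to 4.99%). A single d12 cell held 40 UMIs (34.9 CPM), and means were 27.3 CPM at d12c and 28.3 CPM at d20. The d12c mean leaned on 1 cell at 598 CPM, without which it was 15.9 CPM.

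*Lin28a* UMIs were present in 14 of 51 d12c cells (27.5%, 15.9 to 41.7) and in 24 of 38 d20 cells (63.2%, 46.0 to 78.2). The intervals of these shares do not overlap, but after thinning they did, with shares of 21.3% (10.7 to 35.7) and 50.0% (32.9 to 67.1). Against the level that 3 UMIs over all d0 cells would give, *Lin28a* was at least 379-fold higher at d20, and the exact interval of the ratio begins at 306. At d20, the cells with a *Lin28a* UMI were deeper than those without, with medians of 255736 and 141313 UMIs, so a part of the cells without a UMI could not be told from cells below detection.

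*Lin28b* was sparser. Its means were 3.29 CPM at d12c and 5.86 CPM at d20, with a UMI in 3 of 51 and 11 of 38 cells. Without the cell at 111 CPM, the d12c mean was 1.13 CPM. Before d12c, 6 cells held any *Lin28b* UMI, among them 1 d0 cell with 25 UMIs (48.6 CPM) and 1 d4 cell with 56 UMIs (45.0 CPM), both with negative marker scores and no *Tdh* UMI. No *Lin28b* UMI was found in the 67 cells of d12. Of the 39 cells with *Lin28a*, 12 also held *Lin28b*, and 8 cells held *Lin28b* alone.

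All 39 cells with a *Lin28a* UMI also held a *Tdh* UMI, whereas 32 cells held *Tdh* without *Lin28a*. In thinned cells 26 held both, 28 only *Tdh* and 3 only *Lin28a*, so the nesting was not complete at equal depth. The overlap is a description, since both genes were found almost only in the cells of d12c and d20.

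The promoters of the *Lin28* pair are shown because the genes appear in the same late groups. They span 250 bases before the RefSeq start site on GRCm38.p6, minus strand, at chr4:134018817-134019066 for *Lin28a* and chr10:45470202-45470451 for *Lin28b*, and capitals mark matches on either strand to the motifs AGATAA for factors of the Gata family, CACGTG for an E-box, ATGCAAAT for the octamer, AACAATG for Sox factors and CCACCC for Krüppel-like factors.
Lin28a: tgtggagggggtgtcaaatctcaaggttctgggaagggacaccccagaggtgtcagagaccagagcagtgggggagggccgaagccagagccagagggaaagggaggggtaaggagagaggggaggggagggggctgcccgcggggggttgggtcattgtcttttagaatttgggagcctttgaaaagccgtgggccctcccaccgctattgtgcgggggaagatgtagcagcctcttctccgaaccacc
Lin28b: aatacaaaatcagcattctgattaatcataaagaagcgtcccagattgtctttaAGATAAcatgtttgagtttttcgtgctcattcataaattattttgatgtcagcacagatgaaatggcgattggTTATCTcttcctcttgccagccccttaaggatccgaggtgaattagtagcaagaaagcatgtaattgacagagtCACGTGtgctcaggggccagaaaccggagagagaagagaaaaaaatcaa
None of these letters was in the *Lin28a* window, while the *Lin28b* window held 2 matches to the Gata letters and 1 E-box. Of 32851 RefSeq promoters of this length, 9.99% held the Gata letters, 6.02% the E-box, 1.60% the octamer, 3.29% the Sox letters and 28.1% the Krüppel-like letters, with overlapping matches counted. A match is not a binding site.

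**Figure D1:**
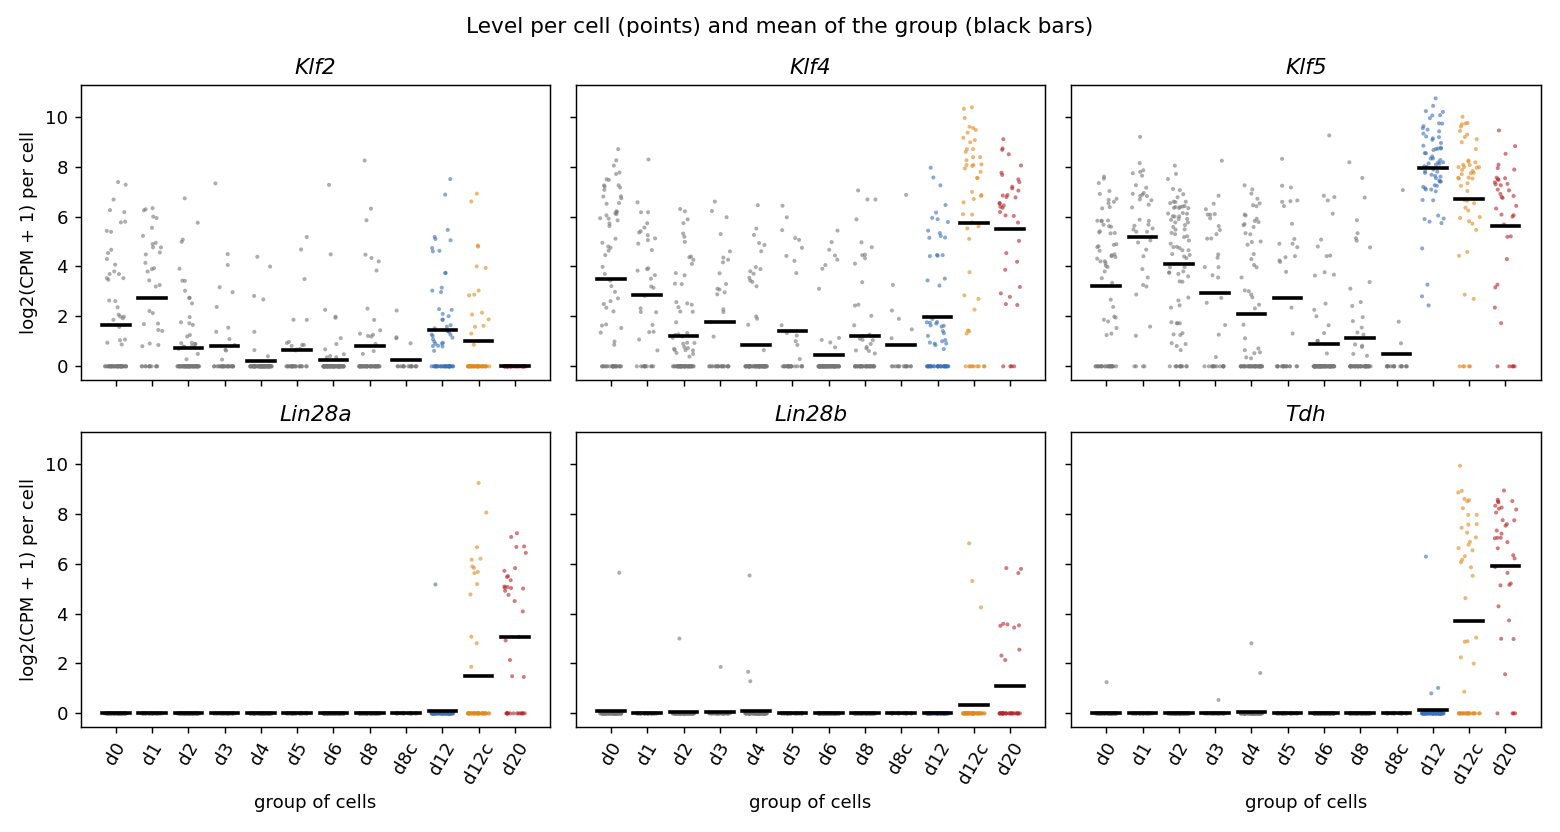
Level of 6 genes in each kept cell as log2(CPM + 1) on the vertical axis, by group on the horizontal axis, with points for cells and black bars for group means. *Tdh* and *Lin28a* lie at 0 until d12 in nearly all cells, *Klf5* steps up at d12, *Klf4* at d12c, and all 38 d20 cells lie at 0 for *Klf2*.

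The 3 Krüppel-like factors followed different courses. *Klf4* (chromosome 4, 55540013 to 55545347, minus strand) had means of 53.6, 24.7, 6.32, 10.7, 4.55, 9.45, 2.06, 9.04 and 6.69 CPM from d0 to d8c, in the order of the groups. The d8c value was 0.949 CPM without its highest cell. The gene was present in the fibroblasts, with a UMI in 49 of 72 d0 cells, and had its lowest mean at d6, with a UMI in 12 of 86 cells. The later means were 18.6 CPM at d12, 256 CPM at d12c and 116 CPM at d20. At d12c the quartiles over cells were 4.66 and 358 CPM, at d20 they were 14.5 and 144 CPM, and at d0 they were 0 and 72.0 CPM, so the cells of these groups overlapped widely.

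On the log2 scale *Klf4* was 2.03 higher at d20 than at d0 and 3.56 higher at d20 than at d12, against a limit of 2. The difference from d0 lay at the limit and was 1.83 with TMM factors, 1.91 with DESeq2 size factors, 1.96 in the cells numbered 1 to 48 and 0.82 in cells with at least 6000 detected genes. Per spike-in UMI, a scale on which the median of all genes was 1.66 lower at d20 than at d0, *Klf4* was lower at d20, at -0.22. Over summed UMIs, *Klf4* was 1.88-fold higher at d20 (counting interval 1.73 to 2.04).

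*Klf5* (chromosome 14, 99697910 to 99712624, plus strand) moved earlier. Its means were 31.1 CPM at d0 and 87.8 CPM at d1, then 42.5, 30.1, 19.6, 34.6, 13.4, 13.0 and 6.79 CPM from d2 to d8c. Without the highest cell of each group, the last 3 were 6.39, 8.54 and 0.176 CPM. At d12 the mean was 399 CPM and every one of the 67 cells held a UMI. This compares with 22 of 62 cells at d8 and 3 of 20 colony cells at d8c. The mean was 258 CPM at d12c and 128 CPM at d20. The lower quartile at d12 was 150 CPM, above the upper quartile of every group from d0 to d8c, which was at most 117 CPM.

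*Klf5* was 4.75 higher at d12 than at d0 and 2.40 higher at d20 than at d0, but 2.35 lower at d20 than at d12. In summed UMIs these were an 11.1-fold higher level at d12 (10.5 to 11.7), a 3.12-fold higher level at d20 (2.88 to 3.38), and a ratio of 0.282 between d20 and d12 (0.265 to 0.300). Between d12 and d0 no other member passed the limit on this scale. The lower level at d20 than at d12 was inside the limit, at -1.72, in the cells numbered 49 and above, and at -1.64 as a log2 ratio of mean CPM + 1.

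*Klf2* (chromosome 8, 74842932 to 74845555, plus strand) was the one member detected at d0 and silent at d20, as 7.07% of all genes were. Its means were 13.1 CPM at d0 and 17.4 CPM at d1, between 0.351 and 8.46 CPM from d2 to d8c, 8.98 CPM at d12 and 6.57 CPM at d12c. At d4 the gene was also called silent, with a mean of 0.634 CPM and a UMI in 7 of 77 cells. Single cells carried much of the middle values, and without the highest cell the means at d3, d6, d8 and d12c were 1.71, 0.411, 3.64 and 4.31 CPM. At d20 none of 38 cells held a UMI, which allows a share of up to 7.89% from a count of 3 (exact interval up to 9.25%), and in thinned cells the shares were 22.5% at d0, 32.5% at d1, 18.2% at d12 and 0 of 36 at d20. In summed UMIs the gene was at least 49.4-fold lower at d20 than at d0, taking 3 UMIs over all d20 cells as the floor, and the exact interval of the ratio of d20 to d0 ends at 0.0249.

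The difference of mean log2 values for *Klf2* was -1.64 between d20 and d0 and so did not pass the limit, since most d0 cells also lay at 0. Among the 34 d20 cells left out for few detected genes, 1 held *Klf2*, with 5 UMIs.

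The *Klf2* and *Klf4* promoters are shown because, of these related genes, *Klf4* was detected at d20 and *Klf2* was not. They lie at chr8:72318812-72319061 (plus strand) and chr4:55532476-55532725 (minus strand) of GRCm38.p6, and capitals mark the same motifs as above.
Klf2: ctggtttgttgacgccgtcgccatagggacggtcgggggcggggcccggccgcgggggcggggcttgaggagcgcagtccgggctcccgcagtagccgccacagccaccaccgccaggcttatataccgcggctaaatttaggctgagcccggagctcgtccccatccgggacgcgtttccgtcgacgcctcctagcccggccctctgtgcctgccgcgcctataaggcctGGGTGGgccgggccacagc
Klf4: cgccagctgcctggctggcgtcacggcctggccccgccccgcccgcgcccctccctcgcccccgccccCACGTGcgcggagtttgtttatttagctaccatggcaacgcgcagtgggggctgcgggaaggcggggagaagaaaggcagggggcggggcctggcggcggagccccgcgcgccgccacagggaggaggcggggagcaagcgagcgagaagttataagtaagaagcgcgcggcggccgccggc
The *Klf2* window held 1 match to the Krüppel-like letters and the *Klf4* window 1 E-box. GC content was 71.2% and 74.0%, compared with 61.2% in the *Lin28a* window and 39.2% in the *Lin28b* window.

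**Figure D2:**
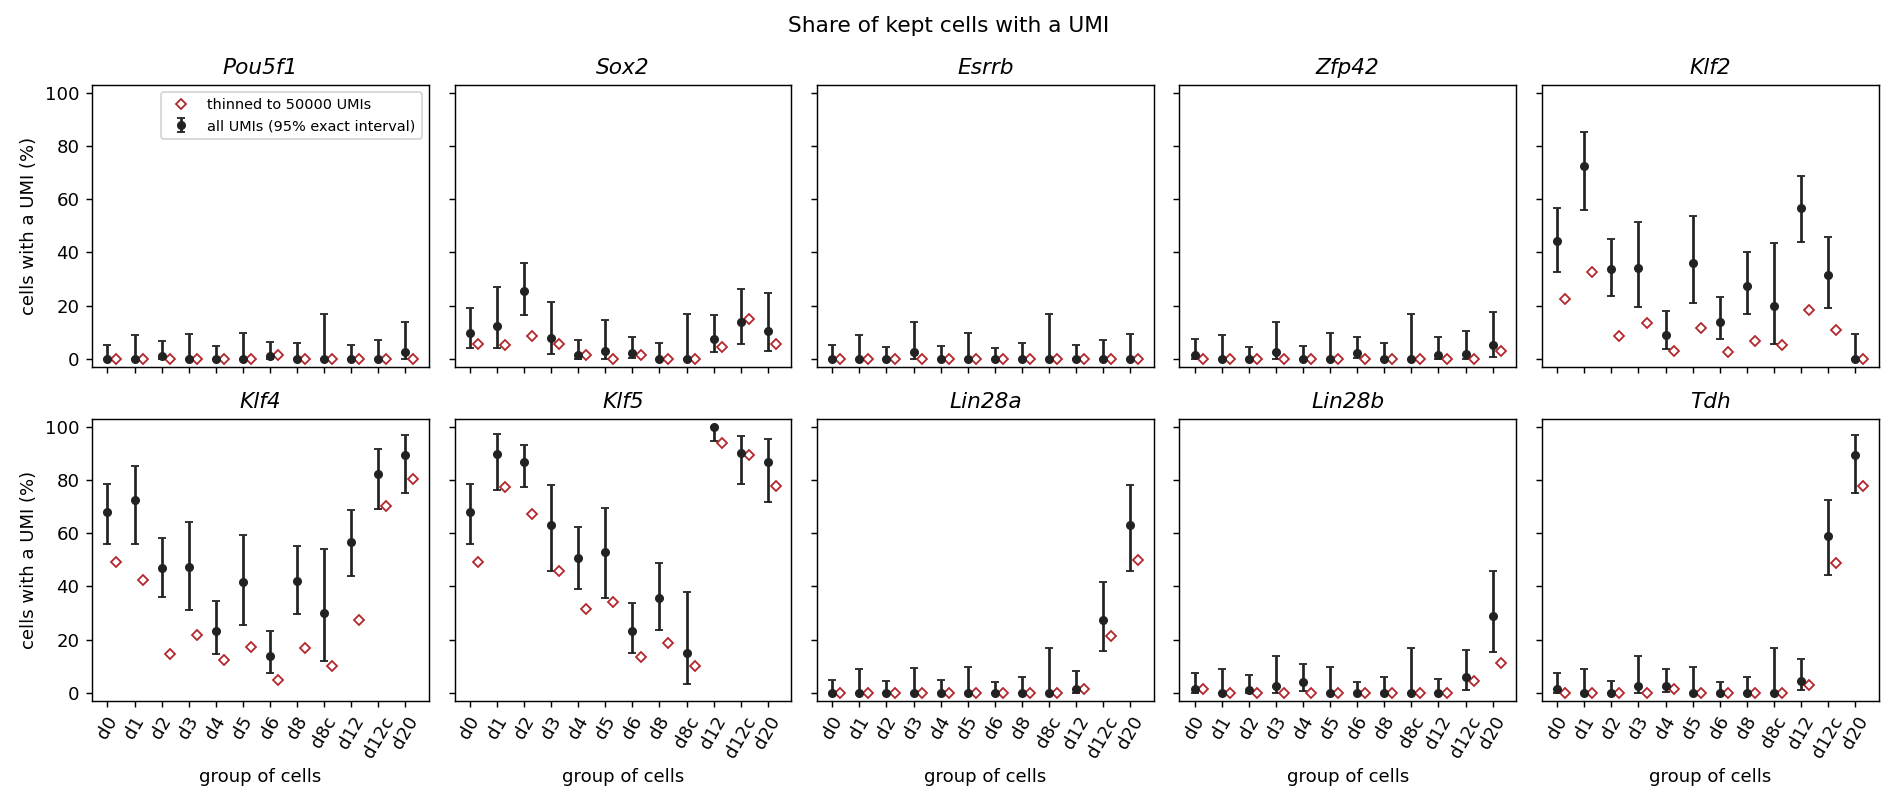
Percent of kept cells with a UMI for each of the 10 genes, by group, with filled points for all UMIs (bars are 95% exact intervals) and open diamonds for cells thinned to 50000 UMIs. *Pou5f1*, *Esrrb* and *Zfp42* stay near 0 in every group, *Klf5* reaches 100% at d12, and *Tdh* reaches 89.5% at d20.

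The 4 stem cell genes were near the floor of the data. *Pou5f1*, whose protein Oct4 is the central factor of the network, had 14 UMIs in 3 of 670 cells, with 2 UMIs in a d2 cell, 10 in a d6 cell and 2 in a d20 cell. *Esrrb*, a nuclear receptor, had 1 UMI in 1 cell of d3. Both were silent in all 12 groups, as were 32.7% of all genes in the table, so 2 of 10 is a share below the background. Reads of *Pou5f1* that match another place in the genome could have been counted elsewhere, so its count is uncertain.

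*Zfp42*, which encodes a zinc finger protein, had 38 UMIs in 8 cells. Its d20 mean of 5.03 CPM came from 2 cells at 155 and 35.9 CPM. The first held 18 UMIs of the gene, and the second held 1 among only 27845 UMIs in all. Without the higher of these cells the mean was 0.971 CPM, which would put the gene among the silent ones. In every other group the mean was at most 0.584 CPM.

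*Sox2* was scattered. It was found in 56 of 670 cells, with means of 1.74, 1.57, 4.98, 1.05, 2.18, 0.471 and 0.913 CPM from d0 to d6, 0 at d8 and d8c, and 4.14, 7.40 and 3.02 CPM at d12, d12c and d20. Several of these means came from 1 cell, without which they were 0.824 CPM at d0, 0.268 at d3, 0 at d4 and d5, 0.0720 at d6 and 1.03 at d20, and the gene would then be silent at d0, d3 and d4. The largest share was 25.3% at d2 (21 of 83 cells), the deepest group, and after thinning it was 8.54% there and 14.9% at d12c. The *Sox2* row lies inside *Sox2ot*, a long noncoding RNA on the same strand that had 15 UMIs in all.

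*Sox2* is also a gene of neural cells. The sum of 9 neural and Schwann cell markers had a median of 14.4 CPM in the d2 cells with *Sox2* and 25.3 CPM in those without, and 71.7 CPM in 4 d20 cells with *Sox2* and 39.8 CPM in 34 without. Their part in the result was not tested. Of the 670 kept cells, 67 held a UMI of *Pou5f1*, *Sox2*, *Esrrb* or *Zfp42*, and only 1, a d12c cell with *Sox2* and *Zfp42*, held UMIs of more than 1 of them.

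Counting over the group, 4 of the 10 genes were detected at d0 (*Sox2*, *Klf2*, *Klf4* and *Klf5*), where 51.4% of all genes were. Without the highest cell of each gene it was 3, since *Sox2* was lost. At d20, 7 were detected (*Sox2*, *Zfp42*, *Klf4*, *Klf5*, *Lin28a*, *Lin28b* and *Tdh*), against 49.4% of all genes. *Zfp42*, *Lin28a*, *Lin28b* and *Tdh* were silent at d0 and detected at d20, a pattern of 5.08% of all genes, and the 4 were also silent in every group from d0 to d8c, as 1.53% were. The call of *Zfp42* rested on 1 cell.

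Between d20 and d0, 6 of the 10 genes reached a mean log2 value of 1 in either group and 4 of these were higher by over 2, namely *Klf4*, *Klf5*, *Lin28a* and *Tdh*. Of 9352 genes compared in this way, 4.38% were higher and 8.92% lower by over 2, with a median difference of -0.20. *Lin28b*, at 1.02, and *Klf2*, at -1.64, were inside the limit, and *Pou5f1*, *Sox2*, *Esrrb* and *Zfp42* were too low to compare. Per spike-in UMI, *Tdh* alone of these genes stayed past the limit, and the differences of *Klf5* and *Lin28a* were 0.26 and 1.88. Between d12 and d0, where 7.21% of genes were higher and 4.19% lower, 1 of 3 compared members was higher. Between d20 and d12, where 6.78% were higher and 13.8% lower, *Klf4* (3.56), *Lin28a* (2.99) and *Tdh* (5.79) were higher and *Klf5* (-2.35) was lower, out of 6 compared members.

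In the order of group means, every gene had neighbouring groups whose quartile ranges over cells overlapped. This was so for all 11 pairs of neighbours for each of the 10 genes, and the orders are therefore given as values only.

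Which of the genes went with the XEN-side state was read from the cells of d12 and d12c, where both sides were present on the same day. Of these cells, 33 were XEN-side and 85 fibroblast-side, with median depths of 312081 and 708287 UMIs. *Klf4* was found in all 33 XEN-side cells and in 47 of 85 fibroblast-side cells, with means of 354 and 30.7 CPM. The fibroblast-side mean was 15.9 CPM without 1 d12c cell at 1273 CPM. *Tdh* was found in 29 of 33 and 4 of 85 cells, with means of 166 and 0.0745 CPM. *Lin28a* was found in 15 of 33 and in 0 of 85 cells, which allows a share of up to 3.53% on the fibroblast side from a count of 3 (exact interval up to 4.25%).

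These 3 genes were higher on the XEN side by 5.75, 5.78 and 2.49 on the log2 scale, in the order *Klf4*, *Tdh* and *Lin28a*. They were 3 of 5 compared members, against 6.02% of 9602 genes that were higher and 12.2% that were lower by over 2. *Lin28b* was found in 3 of 33 cells and in 0 of 85 and was too low to compare. In cells thinned to 50000 UMIs, the shares on the XEN and the fibroblast side were 93.3% and 27.7% for *Klf4*, 80.0% and 1.20% for *Tdh*, and 36.7% and 0 of 83 for *Lin28a*.

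*Klf5* did not separate the sides. It was found in 30 of 33 XEN-side and 83 of 85 fibroblast-side cells, with means of 258 and 369 CPM and a log2 difference of -0.57. Of the XEN-side cells, 31 came from d12c, and of the fibroblast-side cells, 65 came from d12. Within d12c alone the order was the other way, with mean log2 values of 6.94 on the XEN side and 6.37 on the fibroblast side. The medians over these cells were 212 and 94.9 CPM. With d12 and d12c together, *Klf2* was found in 7 of 33 and 47 of 85 cells, with a log2 difference of -0.59. The thinned shares were 6.67% and 18.1%. The higher *Klf5* level at d12 was thus measured in cells of which 65 of 67 lay on the fibroblast side.

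**Figure D3:**
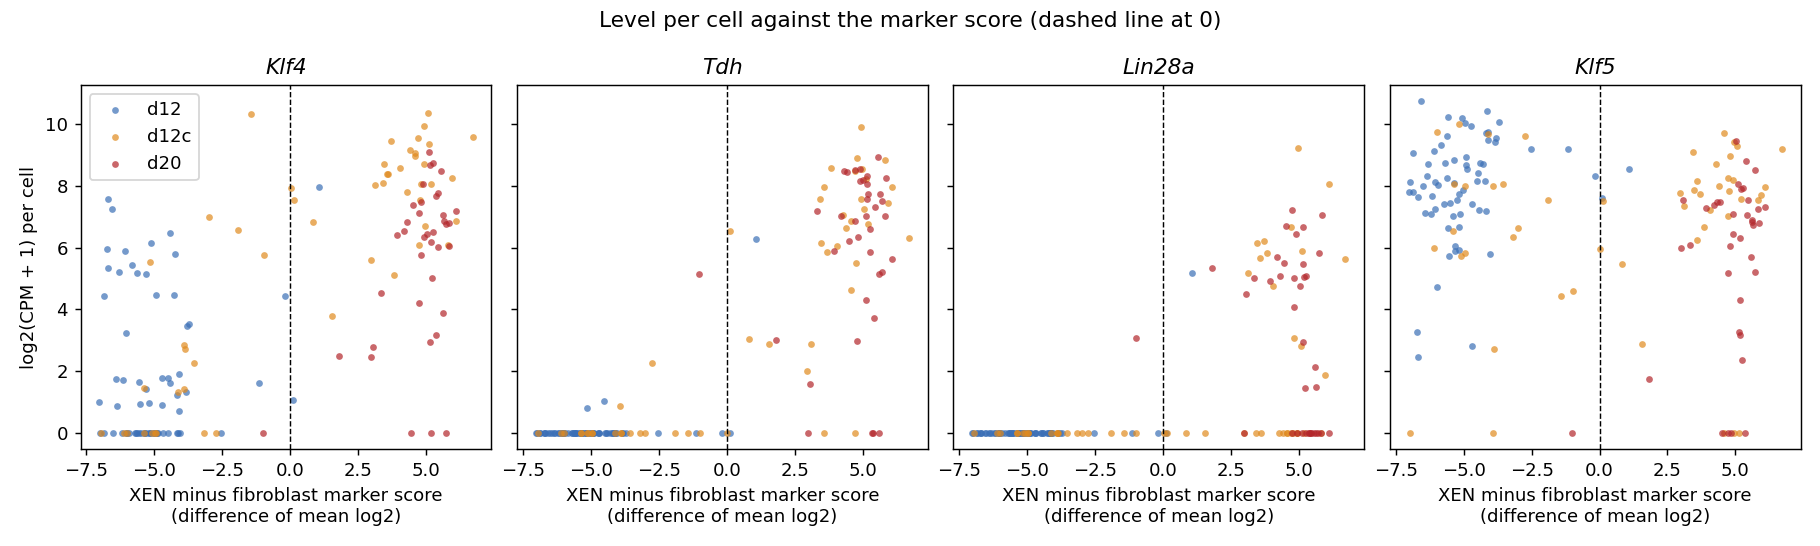
Level of *Klf4*, *Tdh*, *Lin28a* and *Klf5* as log2(CPM + 1) on the vertical axis against the marker score on the horizontal axis for each kept cell of d12 (blue), d12c (orange) and d20 (red), with a dashed line at a score of 0. *Tdh* and *Lin28a* lie near 0 left of the line and spread upward right of it, while *Klf5* is high on both sides.

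The XEN-side d12c cells were set beside the d20 cells. The 31 XEN-side d12c cells had means of 369 CPM for *Klf4*, 257 CPM for *Klf5*, 175 CPM for *Tdh* and 44.9 CPM for *Lin28a*, and the d20 cells had 116, 128, 146 and 28.3 CPM. The *Lin28a* mean was 26.5 CPM without the cell at 598 CPM, and its share of cells was lower on the XEN side of d12c, at 45.2% (27.3 to 64.0), than the 63.2% of d20, with overlapping intervals. For *Tdh* the mean log2 values were 6.01 and 5.91. *Klf2* was found in 6 of these 31 cells and in 0 of 38 at d20, with median depths of 276859 and 195480 UMIs. A d20 cell with a score of -1.01 was the 1 cell of that day on the fibroblast side, and it held *Tdh*, *Lin28a* and *Lin28b* but no UMI of *Klf4* or *Klf5*.

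At d12c, the side of a cell went almost fully with its running number. Of 21 kept cells numbered 1 to 24, 2 were XEN-side, whereas 29 of 30 numbered 49 to 96 were. The 1 fibroblast-side cell of this second range, with 48695 UMIs, held 1273 CPM of *Klf4* and no UMI of *Tdh* or *Lin28a*. In the first range *Klf4* had a mean of 36.5 CPM, *Tdh* 4.58 CPM and *Lin28a* 0, and in the second 410, 178 and 46.4 CPM, while *Klf5* had a mean of 258 CPM in both, with medians over cells of 98.1 and 213 CPM. If number ranges stand for batches, batch and side cannot be told apart at d12c. Among the 67 cells of d12, the cell with the highest score, numbered 23, held 34.9 CPM of *Lin28a*, 76.7 CPM of *Tdh* and 247 CPM of *Klf4*.

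**Figure D4:**
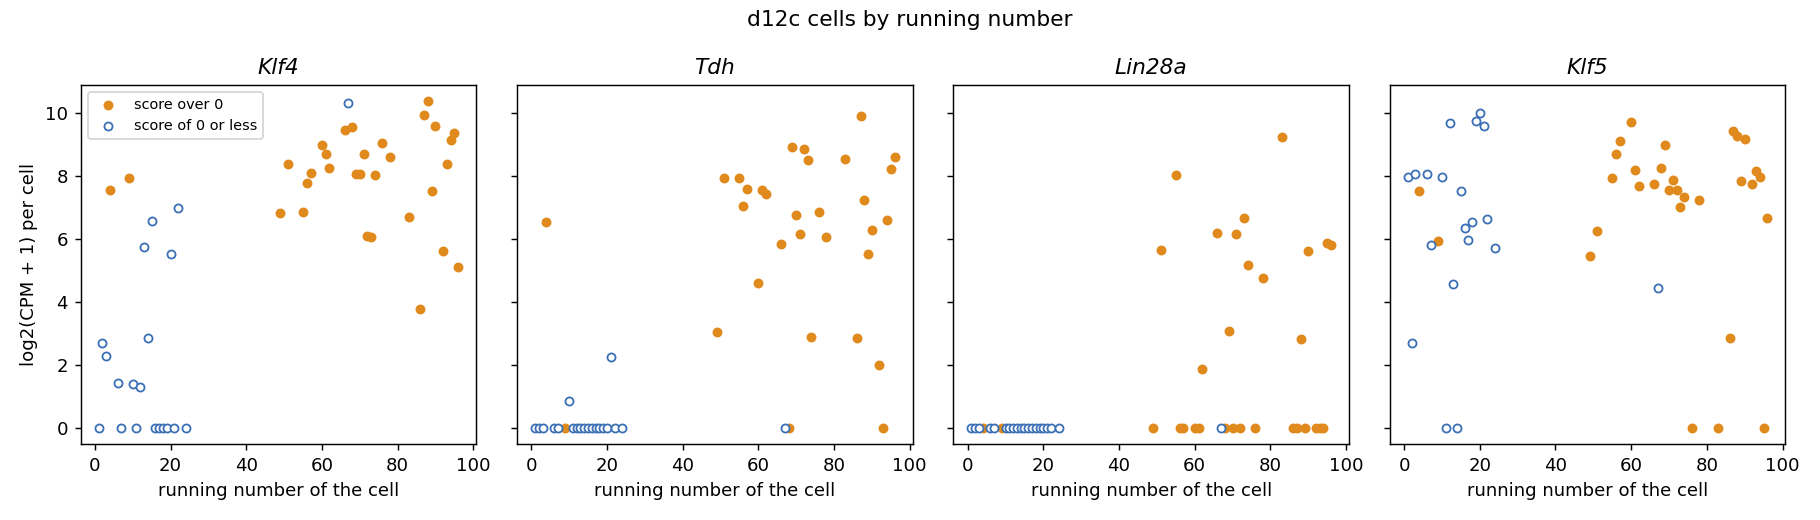
Level of 4 genes as log2(CPM + 1) on the vertical axis in the 51 d12c cells by running number on the horizontal axis, with filled orange points for cells with a marker score over 0 and open blue points for the others. *Klf4*, *Tdh* and *Lin28a* are high mainly in the cells numbered 49 and above, whereas *Klf5* is found in both ranges, with a mean of 258 CPM in each and medians of 98.1 and 213 CPM.

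For the 6 members that reached a mean log2 value of 1, the 3 genes with the most similar course were found among 11303 genes, as the Pearson correlation of group means over the 12 groups. The groups differ in depth, and the batches behind them cannot be read, so the values are descriptions. *Tdh* was closest to *Igfbp1*, an IGF-binding protein (r = 0.998), *Grb7*, an adaptor protein (0.998), and *Ucn*, a peptide hormone (0.997). *Igfbp1* had means of 1.22, 88.8 and 182 CPM at d12, d12c and d20. *Lin28a* was closest to *Esx1* (r = 0.9997), a homeobox gene of the placenta with means of 22.6 CPM at d12c and 79.3 CPM at d20, then to *BC048679* and *Sox14*. *Lin28b* was closest to *4933402E13Rik*, *Trim6* and *Klf8*, each at r = 0.995.

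*Klf5* was closest to *Fam129b* (r = 0.970), *Uck2*, a uridine-cytidine kinase (0.961), and *Rbm47*, an RNA-binding protein (0.942). *Klf4* was closest to *Kcnk1*, a potassium channel (r = 0.967), *Prkcz*, an atypical protein kinase C (0.964), and *Pla2g16*, a phospholipase (0.955). *Klf2* was closest to *U90926* (r = 0.920), *Msln*, which encodes mesothelin (0.916), and *Hmga2-ps1* (0.905). For *Tdh*, *Lin28a* and *Lin28b* a high r needs only low values until d12 and higher ones at d12c and d20.

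The other genes of the same pathways were read from lists. In a list of 39 further genes of the pluripotency network, 17 were high enough to compare between d20 and d0, of which 8 were higher, 2 lower and 7 within the limit, with a median difference of 1.29. Over all genes compared, 4.38% were higher and 8.92% lower, with a median of -0.20. The 2 largest rises were those of *Epcam* (6.72), an epithelial adhesion protein, and *Sall4* (5.64), and the largest falls those of *Zfp57* (-2.69), which protects genomic imprints, and *Jam2* (-2.43). *Sall4* is also one of the XEN markers, and *Epcam* and *Cdh1* are among 6 epithelial markers that were all higher at d20. The other 22 genes of the list had mean log2 values under 1 in both groups.

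In the rest of the Krüppel-like family, 0 of 9 compared genes were higher and 2 were lower at d20, *Klf7* (-4.11) and *Klf3* (-2.41), with a median of -0.09. Among 16 compared genes around Lin28 and let-7, *Igf2bp1* (2.19), an RNA-binding protein of fetal tissues, was higher, and 3 were lower, the largest falls being those of *Igf1r* (-3.84), the IGF1 receptor, and *Ccnd2* (-2.90), a D-type cyclin. The list's median was 0.21. None of 13 compared genes of threonine and glycine catabolism passed the limit, and their median was 0.26. *Gcat*, the enzyme that acts after Tdh on the product of threonine, was 1.54 higher at d20, with means of 127 and 45.4 CPM.

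Markers of other cell types were read in the same way. The 6 endothelial, 6 macrophage and 6 primed epiblast markers each had a summed median of 0 CPM over cells at both d0 and d20. The sum of 6 germ cell markers had a median of 0 CPM at d0 and 28.4 CPM at d20, and that of 9 neural and Schwann cell markers 20.1 and 43.5 CPM. In each of 3 of these lists, 1 gene was higher at d20 by over 2, namely *Kit* (3.87), a receptor tyrosine kinase of the germ cell list, *Pax6* (2.62), a transcription factor of the neural list, and *Dnmt3b* (2.21), a DNA methyltransferase of the epiblast list. Their d20 means were 53.1, 45.3 and 22.8 CPM. *Dazl*, *Ddx4* and *Dppa3* of the germ cell list, and *Sox1* and *Sox10* of the neural list, were at 0 at d20. The sum of 10 trophoblast markers, *Esx1* among them, was between 0 and 250 CPM per cell at d20, with a median of 74.7 CPM against 0 at d0 and 4 of 10 genes at a mean of 1 CPM or more. The 6 epithelial markers had the highest sum of these lists, with a median of 2367 CPM at d20 against 11.4 CPM at d0 and 124 CPM at d12. Their part in the levels of *Klf4* and *Klf5* was not tested.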

How the data were processed

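Reads were assigned to cells by barcode, trimmed and aligned to the transcriptome of the mouse build mm9 by the authors, and duplicates with the same UMI were removed. The deposited values are whole-number counts (UMIs of each gene in each cell) and are not scaled. The aligner is not given in the sources used here. A total of 4 entries under 2 repeated date names were left out, and 92 spike-in RNAs were left out of library sizes. No cell could be assigned to 1 of the 10 samples, so cells were not treated as replicates and no p-value was computed.

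Means were taken over cells of CPM and of log2(CPM + 1). Genes with a mean log2 value of at least 1 in either group were compared, and differences over 2 were called. The 10 genes, the lists and the limits were chosen with earlier results of these data known. Named genes were the 10 members, the 3 nearest courses of each, and the 2 largest rises and falls of each of the 4 pathway lists between d20 and d0. *Cdh1*, *Gcat* and the marker genes were named after their values were seen. A result for 1 gene of the pluripotency list is not reported here. For the 38 d20 and 72 d0 cells, the comparison was tested on simulated data, where 200 of 200 genes changed 16-fold were recovered and 1 of 10144 unchanged genes was called. The changed genes were drawn from those with higher d0 means than *Klf2*, *Tdh*, *Lin28a* or *Lin28b*. The recovery therefore does not cover genes as low at d0 as these, nor smaller changes. Simulated cells varied independently of each other, without batches or subsets of unlike cells. The 1 call among unchanged genes therefore gives no rate of false calls for the real cells. Alternatives covered the filter, scaling, pseudocount, limits, running numbers and single cells.

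Python 3.11.15, numpy 2.4.6, pandas 2.3.3, scipy 1.17.1, edgeR 4.0.16 and DESeq2 1.42.0 were used, the last pair for scaling factors only. Genes were placed with GENCODE M1 (NCBIM37, which is mm9) and promoters were taken from RefSeq on GRCm38.p6, in which 8 of the 10 genes were matched.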

Additional observations from a re-analysis of the deposited data

Results flagged for a closer look

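*Tdh* was also seen in cells that the main comparisons left out, although the alternatives with a lower or no minimum of detected genes took such cells in. Among the 34 d20 cells left out for having under 4000 detected genes, 18 (52.9%, exact interval 35.1 to 70.2) held a *Tdh* UMI, at a median depth of 60536 UMIs, whereas 0 of 12 d0 cells left out by the same filter did, with an exact interval up to 26.5%, at a median of 23286 UMIs. Among the same 34 cells, *Klf5* was found in 22, *Klf4* in 19, *Lin28a* in 11 and *Klf2* in 1.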

How the results depend on the processing

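No paired analysis was possible because the names of the cells do not carry the batch number. For d20 against d0, 4 members passed the limit. With UMIs scaled to spike-in UMIs, 1 member did and the difference of *Klf4* reversed to -0.22, on a scale where 2.52% of the called genes were higher, against 33.0% with CPM. With a pseudocount of 10 in place of 1 the count was also 1 (*Tdh*), since that pseudocount shrinks differences of low genes. For d12 against d0, the count of 1 became 2 per spike-in UMI, with a pseudocount of 0.1 and with a limit of 1, each time by a lower *Klf4* (-2.42, -2.01 and -1.52). For d20 against d12, the count of 4 became 2 with a pseudocount of 10. Called silent only with a UMI in 0 cells, 0 members were silent at every time point and 7 were detected at d0. The other alternatives left these counts, and the 3 members higher on the XEN side, within 1.5 times their value, with *Lin28a* lost from the 3 without a minimum of detected genes and with a pseudocount of 10. A minimum of 6000 detected genes, which left 12 d20 cells, kept the count of d20 against d0 at 4 with other members, since *Klf4* (0.82) and *Klf5* (1.88) were lost while *Lin28b* (2.38) and a lower *Klf2* (-2.14) passed. No count has a replicate behind it, and a share of 0 allows, from a count of 3, up to 3.49% of cells at d6, the largest group, and 15.0% at d8c, the smallest. The causes were not tested.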
